A study of Arabidopsis thaliana with 18 samples.

Results

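The WRKY genes measured here were the 6 probe sets of the ATH1 array that were annotated to exactly 1 gene with a symbol made of WRKY and a number. They were WRKY6 (AT1G62300, probe set 264746_at), WRKY20 (AT4G26640, 253983_at), WRKY22 (AT4G01250, 255568_at), WRKY42 (AT4G04450, 255337_at), WRKY47 (AT4G01720, 255596_at) and WRKY53 (AT4G23810, 254231_at). These are 6 of the 22746 probe sets tested and 6 of the 13513 that carried exactly 1 gene. WRKY6 lies on chromosome 1 and the other 5 on chromosome 4. In the annotation used, 65 of the 72 WRKY loci of the gene table had no such probe set and are not analysed here. The seventh measured locus, ZAP1 (also called WRKY1), carries another symbol and is given only beside the others.

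WRKY factors are a large plant family of DNA-binding proteins, named for the conserved amino acids of their zinc-finger domain, and they bind W-box elements in promoters. They are best known for switching defence, senescence, nutrient and stress genes on or off, often within a short time of a signal. Some of them are held in check or helped by VQ-motif proteins, small partners that bind the WRKY domain. Of the genes measured here, WRKY22 acts downstream of MAP kinases in immune signalling and has been linked to submergence, and WRKY53 is a regulator of leaf senescence. WRKY6 acts in senescence, defence and phosphate homeostasis, and WRKY42 in phosphate homeostasis. WRKY6, WRKY42 and WRKY47 belong to the same subgroup, IIb, and WRKY20 belongs to the group whose members carry a pair of WRKY domains.

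Transcript levels came from 18 Arabidopsis thaliana arrays in 8 groups. The mutants are blocked in the N-end rule pathway, which degrades proteins by their N terminus: ate1 ate2 is mutated in both genes for the enzymes that add arginine to N termini, and prt6-1 in the ubiquitin ligase that binds such N termini. Col-0 is the wild type. Seeds that had imbibed for 24 h gave 3 arrays of prt6-1 and 3 of Col-0, and no seed array of ate1 ate2 is among the samples. Seedlings aged 7 days spent 2 h either under argon, which is the hypoxia treatment, or in air at the same low light, with 2 arrays for each of ate1 ate2, prt6-1 and Col-0 in each condition. RNA came from whole seeds and whole seedlings, so fewer cells of a type and less RNA per cell cannot be told apart. The design text calls the replicates independent biological experiments.

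Values are log2 units of the deposited table, and 1 unit is a doubling. They compare arrays for the same probe set, not 1 gene with another. Array medians lay between 6.70 and 6.88, arrays of 1 seedling group correlated at 0.995 to 0.997 over probe sets, and those of 1 seed group at 0.986 to 0.995. Among the seed arrays replicate 1 of Col-0 was the least like its own group (mean correlation 0.986). The seed storage transcript PAP85, the 1 measured of 12 seed markers, read 12.09, 12.76 and 12.78 in prt6-1 seeds, against 12.55 in that array and 8.98 and 8.78 in the other Col-0 seed arrays. The photosynthesis transcript RCA, the 1 measured of 10 green-tissue markers, read 14.32 to 14.39 in the seedlings, against 9.79 to 10.61 in the seeds. A transcript was called changed at an adjusted p under 0.05 in limma with Benjamini-Hochberg adjustment over all 22746 probe sets. The p-values measure the spread between these few arrays, whose number limits the precision of every value.

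The 6 genes fell into 3 kinds of pattern over the 8 groups. WRKY6 and WRKY22 had their 3 highest group means in the 3 hypoxia groups, and their 6 seedling group means spanned 1.46 and 1.53 units. WRKY47 was the gene with the widest difference between seeds and seedlings, with all 6 seed arrays at 5.82 to 6.34 and all 12 seedling arrays at 7.29 to 7.93. WRKY20, WRKY42 and WRKY53 kept seedling group means within 0.33, 0.24 and 0.21 units of each other. WRKY42 (3.72 to 4.45 over the 18 arrays) and WRKY53 (4.00 to 5.00) lay among the dimmest 33.3% of probe sets, where a small change in transcript level is hard to see on an array.

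**Figure D1:**
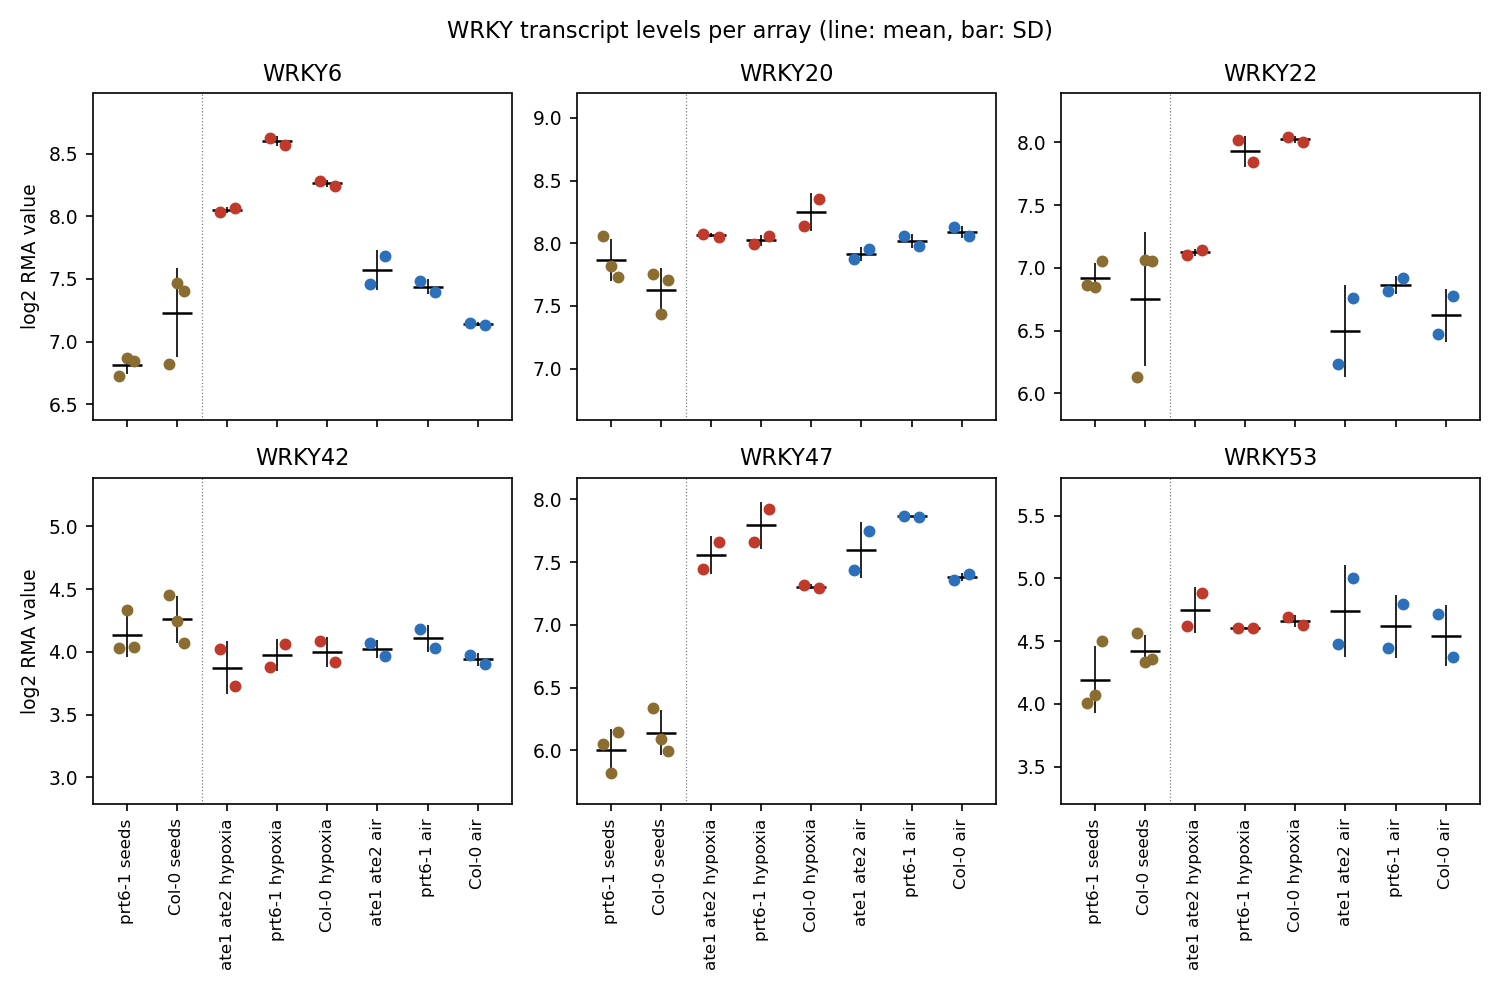
Log2 RMA value of the 6 WRKY genes on each array (dots), with the mean (horizontal line) and SD (vertical bar) of each of the 8 groups; every panel spans the same number of units on its own vertical axis. WRKY6 and WRKY22 were highest under hypoxia (red), WRKY47 was at 5.82 to 6.34 in all seed arrays (brown), and the other 3 genes stayed within 0.33 units between seedling group means.

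The first question was which WRKY transcripts 2 h of hypoxia changed in seedlings. WRKY6 and WRKY22 rose in all 3 genotypes, and the other 4 were called in none. WRKY6 read 8.03 and 8.07 in hypoxic ate1 ate2 seedlings, against 7.46 and 7.68 in ate1 ate2 in air. In prt6-1 it read 8.63 and 8.57 under hypoxia, against 7.48 and 7.40 in air, and in Col-0 8.28 and 8.24 under hypoxia, against 7.15 and 7.13 in air. Hypoxic and air arrays of WRKY6 did not overlap in any genotype, and the lowest hypoxic array of the 6 lay above the highest air array.

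WRKY6 rose by 0.48 in ate1 ate2 (SE 0.10, 1.39-fold, adjusted p = 0.0209), by 1.16 in prt6-1 (SE 0.10, 2.23-fold, adjusted p = 7.53e-06) and by 1.12 in Col-0 (SE 0.10, 2.18-fold, adjusted p = 6.84e-06), all by limma. Over the 3 genotypes its mean rise was 0.92 (95% interval 0.79 to 1.05, adjusted p = 7.49e-08). The rise of this senescence and phosphate regulator was thus a little more than a doubling in prt6-1 and Col-0.

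WRKY22, the immune and submergence-linked factor, read 7.10 and 7.14 in hypoxic ate1 ate2 seedlings, against 6.23 and 6.76 in air. In prt6-1 it read 8.02 and 7.84 under hypoxia, against 6.81 and 6.92 in air. In Col-0 it read 8.05 and 8.00 under hypoxia, against 6.47 and 6.77 in air. The hypoxic arrays again lay above the air arrays in each genotype, and the ate1 ate2 hypoxic arrays were the lowest of the 6 hypoxic ones, with the rest at 7.84 or above.

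WRKY22 rose by 0.63 in ate1 ate2 (SE 0.15, 1.55-fold, adjusted p = 0.0378), by 1.06 in prt6-1 (SE 0.15, 2.09-fold, adjusted p = 0.000734) and by 1.40 in Col-0 (SE 0.15, 2.65-fold, adjusted p = 3.99e-05) in the same limma fit. Its mean rise over the genotypes was 1.03 (95% interval 0.85 to 1.22, adjusted p = 1.45e-06). In each genotype 2 of the 6 WRKY genes were thus called, and of all probe sets 2.92% were called in ate1 ate2, 4.08% in prt6-1, 2.1% in Col-0 and 9.07% in the mean over genotypes. The calls in prt6-1 and Col-0 held under each alternative run. Those in ate1 ate2 were lost without air replicate 1 (WRKY6 0.36, adjusted p = 0.141; WRKY22 0.37, adjusted p = 0.233) and without either hypoxic array (0.46 to 0.49 for WRKY6 and 0.61 to 0.65 for WRKY22). Both were also lost with only the compared groups in the fit (adjusted p = 0.0945 for WRKY6 and 0.112 for WRKY22), and that of WRKY22 with quantile normalization (0.59, adjusted p = 0.0507).

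The differences of the other 4 genes between hypoxia and air ran from -0.15 to 0.15 in the 3 genotypes. WRKY20 differed by 0.15 in ate1 ate2, 0.01 in prt6-1 and 0.15 in Col-0, with 95% intervals reaching no further than 0.37. WRKY47, a relative of WRKY6 in subgroup IIb, differed by -0.04 (95% interval -0.31 to 0.23) in ate1 ate2, -0.07 (-0.34 to 0.20) in prt6-1 and -0.08 (-0.35 to 0.19) in Col-0. WRKY42, also of that subgroup, differed by -0.15, -0.14 and 0.06 in the same order, and WRKY53 by 0.01, -0.01 and 0.12. The upper ends of these intervals reached at most 0.48, so a doubling lay outside every one of them. ZAP1 differed by 0.05, -0.14 and -0.01 and was not called.

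**Figure D2:**
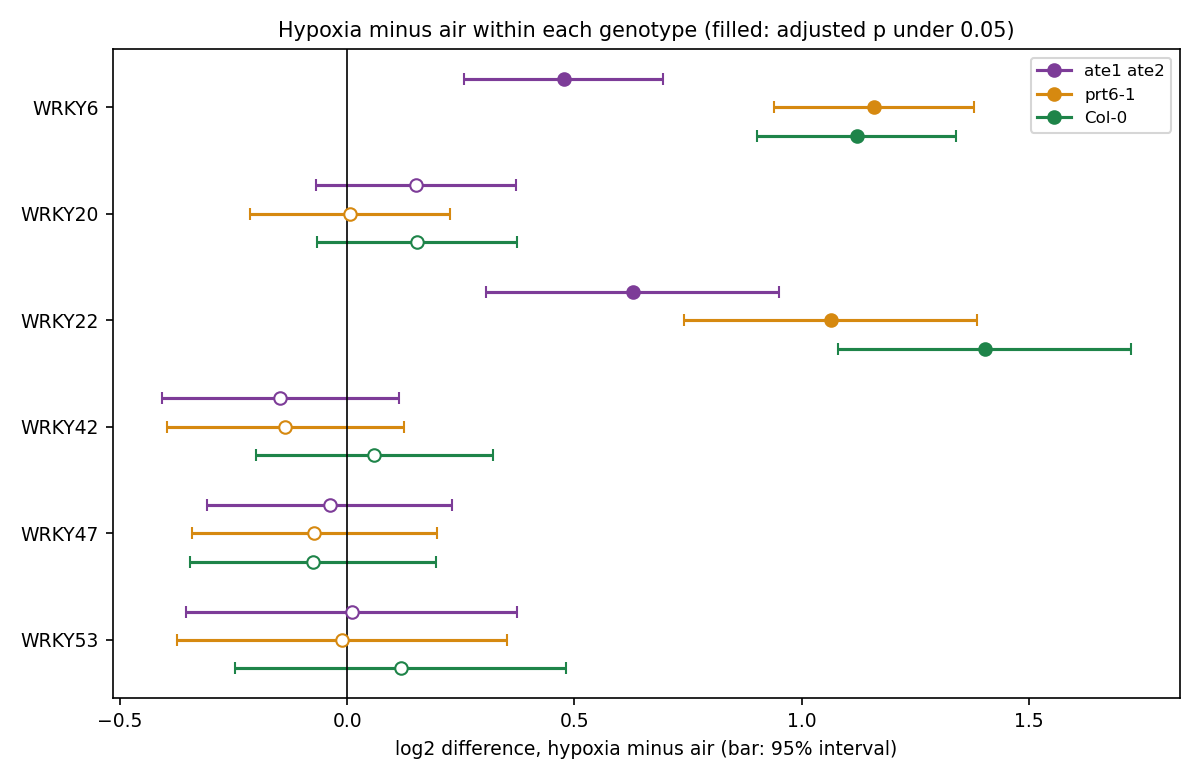
Log2 difference, hypoxia minus air, for each WRKY gene in ate1 ate2, prt6-1 and Col-0 seedlings, with 95% intervals from limma (2 arrays a group, 12 arrays in the fit); filled points had an adjusted p under 0.05. WRKY6 and WRKY22 lie right of 0 in each genotype and lowest in ate1 ate2 (0.48 and 0.63), and the other 4 genes lie between -0.15 and 0.15.

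The next question was whether the genotype altered these responses, which the interaction of genotype and hypoxia tests. The hypoxia response of ate1 ate2 minus that of Col-0 was -0.64 for WRKY6 (SE 0.14, 95% interval -0.95 to -0.33, unadjusted p = 0.000524, adjusted p = 0.111) and -0.78 for WRKY22 (SE 0.21, -1.23 to -0.32, unadjusted p = 0.0026, adjusted p = 0.269) by limma. Neither passed, so 0 of the 6 WRKY genes were called, with 2 at an unadjusted p under 0.05, and 0.308% of all probe sets were called. Without ate1 ate2 air replicate 1, which read 6.23 for WRKY22 against 6.76 in its partner, the differences were -0.76 for WRKY6 and -1.04 for WRKY22. Without air replicate 2 instead, both differences were smaller in size than in the fit of all arrays. Each of these fits leaves 1 array in the group. In the alternatives that kept all arrays of the compared groups, neither gene was called.

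For prt6-1 the response minus that of Col-0 was 0.04 for WRKY6 (95% interval -0.27 to 0.35) and -0.34 for WRKY22 (-0.79 to 0.12). No WRKY gene was called by limma or had an unadjusted p under 0.05, and of all probe sets 0.167% were called. The intervals of the other 4 genes lay between -0.64 and 0.39. The response of ate1 ate2 minus that of prt6-1, a comparison added after the data were seen, was -0.68 for WRKY6 (unadjusted p = 0.000315, adjusted p = 0.513) and -0.44 for WRKY22 (adjusted p = 0.818) in limma, with 0 of the 6 genes called, 1 at an unadjusted p under 0.05, and 0.0044% of all probe sets called.

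The mutants were then compared with Col-0 in each condition. In air, WRKY47 read 7.87 and 7.86 in prt6-1, against 7.36 and 7.40 in Col-0, and under hypoxia 7.66 and 7.93 in prt6-1, against 7.32 and 7.29 in Col-0. The prt6-1 arrays lay above the Col-0 arrays in both conditions. WRKY47 was 1.40-fold higher in prt6-1 in air (log2 0.48, SE 0.13, adjusted p = 0.0449) and 1.40-fold higher under hypoxia (log2 0.49, SE 0.13, adjusted p = 0.0375) by limma, from different arrays. It was the 1 WRKY gene of 6 called in either condition, where 4.15% of all probe sets were called in air and 5.19% under hypoxia.

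Both WRKY47 calls were near the threshold. The one in air was lost without any 1 of its 4 arrays (log2 0.46 to 0.51, adjusted p 0.102 to 0.226), and the one under hypoxia without either Col-0 array (0.48 and 0.50) or prt6-1 replicate 2 (0.35, adjusted p = 0.318). In ate1 ate2 seedlings WRKY47 read 7.44 and 7.75 in air and 7.45 and 7.66 under hypoxia, also above each Col-0 array of the same condition. Its differences there, 0.21 (95% interval -0.06 to 0.48) in air and 0.25 (-0.02 to 0.52) under hypoxia, were not called.

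WRKY6 was higher in ate1 ate2 than in Col-0 in air by 0.43 (SE 0.10, 1.35-fold, adjusted p = 0.0301), the 1 WRKY gene of 6 called by limma where 3.71% of all probe sets were. The call was lost on leaving out either array of Col-0 in air (0.44 and 0.42) or ate1 ate2 air replicate 2 (0.32, adjusted p = 0.243), and with only the compared groups in the fit (adjusted p = 0.173). In prt6-1 in air WRKY6 differed from Col-0 by 0.30 (95% interval 0.08 to 0.52, adjusted p = 0.14), and both prt6-1 arrays lay above both Col-0 arrays. Under hypoxia it differed by 0.34 in prt6-1 (adjusted p = 0.0786) and by -0.21 in ate1 ate2 (adjusted p = 0.408), again with no overlap between mutant and Col-0 arrays. Its hypoxic means thus ran in the order prt6-1, Col-0 and ate1 ate2. Neither mutant was called against Col-0 by limma, so this order is a description of 2 arrays a group.

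WRKY22 was lower in ate1 ate2 than in Col-0 under hypoxia, with the 7.10 and 7.14 of ate1 ate2 against the 8.05 and 8.00 of Col-0. It fell by 0.90 on the log2 scale (SE 0.15, 95% interval -1.22 to -0.58, 1.87-fold lower, adjusted p = 0.00334), and it was the 1 WRKY gene of 6 called by limma where 2.62% of all probe sets were. This call held under every alternative run. In prt6-1 under hypoxia WRKY22 differed from Col-0 by -0.10 (-0.42 to 0.23), and the arrays overlapped. In air its differences were -0.13 (-0.45 to 0.20) in ate1 ate2 and 0.24 (-0.08 to 0.57) in prt6-1.

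The mutants were also set against each other, after the data had been seen. Under hypoxia WRKY6 was at 8.03 and 8.07 in ate1 ate2, against 8.63 and 8.57 in prt6-1, a difference of -0.55 (95% interval -0.77 to -0.33, adjusted p = 0.051). WRKY22 differed by -0.81 (-1.13 to -0.48, adjusted p = 0.051). Both missed the limma threshold by little, so 0 of 6 WRKY genes were called with 2 at an unadjusted p under 0.05, and of all probe sets 0.163% were called. Both passed with quantile normalization, with an intensity trend and robust prior, and with the replicate number as a block. They did not both pass with only the compared groups in the fit or without the dimmest 33.3% of probe sets. In air 0 of the 6 WRKY genes were called by limma between ate1 ate2 and prt6-1, with 2 at an unadjusted p under 0.05, where 0.127% of all probe sets were called, and the differences ran from -0.37 for WRKY22 to 0.13 for WRKY6.

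WRKY20, WRKY42 and WRKY53 were called in no comparison of a mutant with Col-0. Their differences in seedlings ran from -0.22, for WRKY20 in prt6-1 under hypoxia, to 0.20, for WRKY53 in ate1 ate2 in air. WRKY20 was below Col-0 in both mutants and both conditions (differences of -0.22 to -0.08), with all mutant arrays below all Col-0 arrays of the same condition. The Col-0 arrays are shared by the mutants, so these are not 4 separate observations. The narrowest gap was in air, with 8.056 in prt6-1 against 8.059 in Col-0.

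**Figure D3:**
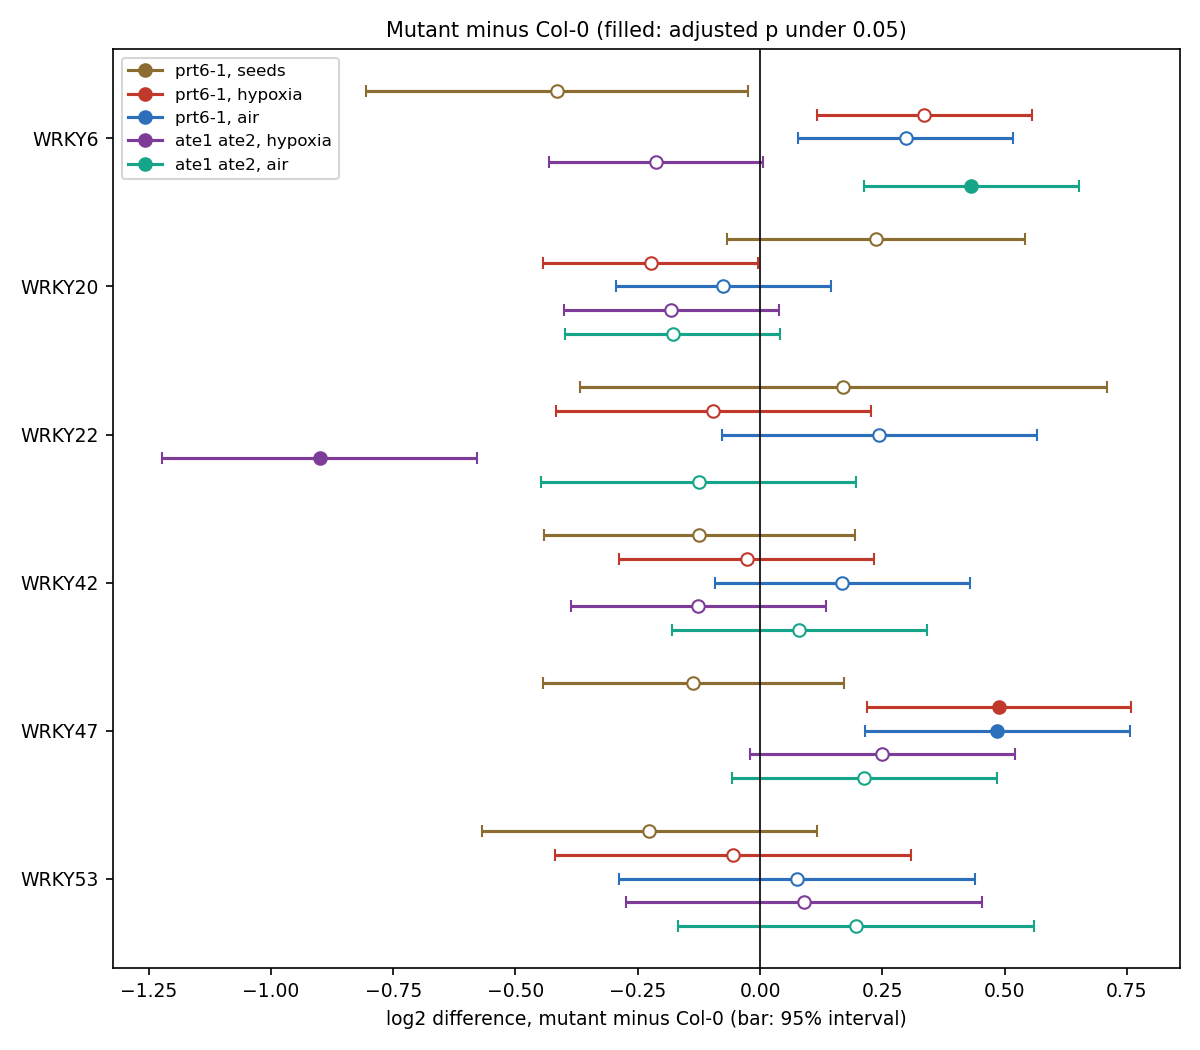
Log2 difference, mutant minus Col-0, for each WRKY gene in prt6-1 seeds (3 arrays a group) and in prt6-1 and ate1 ate2 seedlings under hypoxia or in air (2 arrays a group), with 95% intervals from limma; filled points had an adjusted p under 0.05. WRKY22 in hypoxic ate1 ate2 lies at -0.90, WRKY47 in prt6-1 seedlings at 0.48 and 0.49, and no seed point is filled.

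In imbibed seeds the question was whether the prt6-1 mutation altered WRKY transcripts at this stage. WRKY6 read 6.73, 6.87 and 6.85 in prt6-1 seeds, against 6.83, 7.47 and 7.40 in Col-0 seeds. The overlap came from Col-0 replicate 1, the array least like its group. The difference was -0.42 (SE 0.17, unadjusted p = 0.0395, adjusted p = 0.228) by limma, and 0 of 6 WRKY genes were called, with 1 at an unadjusted p under 0.05, where 4.11% of all probe sets were called. Without Col-0 seed replicate 1, WRKY6 was called by limma, at -0.62 (adjusted p = 0.0156). Leaving out Col-0 replicate 2 or 3 instead, at 7.47 and 7.40, made the difference smaller in size. The arrays were too few to tell whether replicate 1 is an outlier.

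The same array held the lowest WRKY22 value of the 18, 6.13, against 7.06 in both other Col-0 seed arrays and 6.84 to 7.06 in prt6-1 seeds. WRKY22 differed by 0.17 (95% interval -0.37 to 0.71) between prt6-1 and Col-0 seeds. WRKY47 read 6.05, 5.82 and 6.14 in prt6-1 seeds, against 6.34, 6.09 and 5.996 in Col-0 seeds, and differed by -0.14 (-0.44 to 0.17). The differences of WRKY20, WRKY42 and WRKY53 were 0.24, -0.12 and -0.23, and the arrays of the genotypes overlapped for each of the 6 genes.

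Of the prt6-1 differences from Col-0 in seeds and in air seedlings, WRKY47 in air was the 1 called. Whether the prt6-1 effect differed between seeds and air seedlings was tested for the 6 genes in 1 fit of all 18 arrays, after the data had been seen. The prt6-1 effect in seeds minus that in air seedlings was -0.71 for WRKY6 (SE 0.21, 95% interval -1.15 to -0.28, adjusted p = 0.0537) and -0.62 for WRKY47 (SE 0.19, -1.02 to -0.22, adjusted p = 0.0682). It ran from -0.30 for WRKY53 to 0.31 for WRKY20 in the other 4. By limma 0 of 6 were called, 2 had an unadjusted p under 0.05, and of all probe sets 5.61% were called. Without Col-0 seed replicate 1 the WRKY6 contrast was -0.92 and was called by limma (adjusted p = 0.000405). Without Col-0 seed replicate 2 or 3 it was smaller in size than in the fit of all arrays.

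Seeds and air seedlings of 1 genotype differed in tissue, age, medium and light at once, and it is not given whether their arrays were normalized in 1 run. Most transcripts differed: 64.9% of probe sets were called in prt6-1 and 65% in Col-0, so 3 called WRKY genes of 6 in each genotype is a share below that of all probe sets. The median difference of all probe sets was 0.13 in prt6-1 and 0.14 in Col-0, and the WRKY differences are read against that shift.

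WRKY47 was 3.63-fold lower in seeds than in air seedlings in prt6-1 (log2 -1.86, SE 0.13, adjusted p = 1.64e-09) and 2.36-fold lower in Col-0 (log2 -1.24, SE 0.13, adjusted p = 3.12e-07) by limma. The seed arrays lay at least 1 unit below the air seedling arrays in each genotype. WRKY6 was lower in prt6-1 seeds by 0.62 (SE 0.15, adjusted p = 0.00116), and in Col-0 it differed by 0.09 (95% interval -0.22 to 0.40). Without Col-0 seed replicate 1 the Col-0 difference was 0.29 (adjusted p = 0.019 by limma), and without replicate 2 it changed sign. WRKY20 was lower in Col-0 seeds by 0.46 (SE 0.12, adjusted p = 0.0024), with its arrays at 7.75, 7.43 and 7.71, against 8.13 and 8.06 in air seedlings, and it differed by -0.15 in prt6-1.

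The dim genes WRKY53 and WRKY42 were called once each. WRKY53 was lower in prt6-1 seeds by 0.42 (adjusted p = 0.0412) and WRKY42 higher in Col-0 seeds by 0.32 (adjusted p = 0.0472). The WRKY53 arrays overlapped, and its call was lost without prt6-1 seed replicate 1 or 2, or prt6-1 air replicate 2 (-0.25), and with only the compared groups in the fit (adjusted p = 0.0593). The WRKY42 call was lost without any array but Col-0 seed replicate 3, with values of 0.22 to 0.36, and also with only the compared groups in the fit (adjusted p = 0.0961) or quantile normalization (0.21, adjusted p = 0.164). WRKY22 differed by 0.06 in prt6-1 and by 0.13 in Col-0. Without Col-0 seed replicate 1 it was called by limma in Col-0 at 0.44 (adjusted p = 0.0158), and without replicate 2 or 3 its difference changed sign. ZAP1 was higher in prt6-1 seeds by 0.43 (adjusted p = 0.00137), and this was the 1 comparison in which it was called.

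The 8 group means were also put in order, with whether the arrays of neighbouring groups overlapped, which is a description and not a test. WRKY6 ran from 8.60 in hypoxic prt6-1 through 8.26 in hypoxic Col-0 and 8.05 in hypoxic ate1 ate2 to 7.57, 7.44 and 7.14 in air ate1 ate2, prt6-1 and Col-0, with Col-0 seeds at 7.23 and prt6-1 seeds at 6.82. Its 3 hypoxic groups did not overlap their neighbours, whereas air ate1 ate2, air prt6-1 and Col-0 seeds each overlapped the next in order. Air Col-0 did not overlap prt6-1 seeds, the lowest group. WRKY22 ran from 8.03 in hypoxic Col-0 and 7.93 in hypoxic prt6-1, which overlapped, to 7.12 in hypoxic ate1 ate2. Its 5 remaining groups, at 6.50 to 6.92, all overlapped the next in order.

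Over the 12 seedling arrays WRKY6 and WRKY22 had a Pearson r of 0.88. This and the following r values are descriptions over arrays that share the same treatment split. WRKY47 had r of 0.11 with WRKY6 and -0.03 with WRKY22. The single-gene probe sets most like WRKY6 were AT1G10140, AT5G11090 and AT1G03610 (r of 0.96 each). Those most like WRKY22 were AT4G37180 (0.95), AT2G44770 (0.94) and AT2G22880 (0.93), and the last of these belongs to the VQ-motif genes. Those most like WRKY47 were MAP1C, a methionine aminopeptidase gene (0.95), AT5G38780 (0.94) and AT4G16400 (0.93).

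Of 34 genes for VQ-motif proteins, the partners of WRKY factors, 16 had a probe set of their own. Under hypoxia 0 of the 16 were called by limma in ate1 ate2 (2 had an unadjusted p under 0.05), 4 were higher in prt6-1 and 5 were higher in Col-0, and none was called lower in any genotype. Of all probe sets 2.92% were called in ate1 ate2, 4.08% in prt6-1 and 2.1% in Col-0. Their median difference was 0.03 in ate1 ate2, 0.10 in prt6-1 and 0.11 in Col-0, against medians of all probe sets of -0.02, -0.015 and -0.01. Higher in both prt6-1 and Col-0 were AT2G22880 (0.73 and 1.07), AT5G46780 (0.58 and 0.52) and AT4G15120 (0.49 and 0.74). AT1G78410 was called in prt6-1 (0.67), and AT4G39720 (0.77) and AT4G20000 (0.43) in Col-0. Each of these calls except AT2G22880 and AT4G15120 in Col-0 was lost without at least 3 of its 4 arrays, left out singly. With only the compared groups in the fit AT4G15120 in prt6-1 (adjusted p = 0.0824) and AT5G46780 (0.0945) and AT4G20000 (0.12) in Col-0 were not called.

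AT2G22880, the VQ gene most like WRKY22, read 5.67 and 5.83 in hypoxic ate1 ate2, against 5.28 and 5.88 in air. In prt6-1 it read 6.23 and 6.13 under hypoxia, against 5.44 and 5.46 in air, and in Col-0 6.24 and 6.45 under hypoxia, against 5.16 and 5.39 in air. Its hypoxic and air arrays overlapped in ate1 ate2 and not in prt6-1 or Col-0. The gene was picked out for its likeness to WRKY22 over these same arrays, so a similar pattern follows in part from that choice. In the limma interaction of genotype and hypoxia 0 VQ genes were called for either mutant (4 had an unadjusted p under 0.05 for ate1 ate2 and 1 for prt6-1), so the differing counts do not show that the genotypes differed. The count in prt6-1 was 0 without replicate 1 of either condition and 1 without replicate 2 of either. That in Col-0 was 2 without air replicate 1 or hypoxia replicate 2, and 3 without hypoxia replicate 1.

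In air 2 of the 16 VQ genes were higher in ate1 ate2 than in Col-0, where 3.71% of all probe sets were called, and 1 of 16 was higher in prt6-1, where 4.15% were. AT4G39720 was called in both (0.77 in ate1 ate2 and 0.72 in prt6-1) and AT4G15120 in ate1 ate2 (0.50). Without Col-0 air replicate 1, which read 5.59 for AT4G39720 against 6.09 in its partner, none of these was called. Both ate1 ate2 calls were also lost with only the compared groups in the fit. That of AT4G15120 was lost with an intensity trend and robust prior and without Col-0 air replicate 2 or ate1 ate2 air replicate 1, and that of AT4G39720 in prt6-1 without prt6-1 air replicate 2. AT4G39720 was also the 1 VQ gene called in prt6-1 seeds, at 7.21, 6.87 and 6.99 in prt6-1, against 5.35, 5.77 and 5.49 in Col-0 (log2 difference 1.49), where 4.11% of all probe sets were called. Under hypoxia AT3G56880 was the 1 called VQ gene in prt6-1, where 5.19% of all probe sets were called. It was lower than in Col-0 by 0.45, a call lost without either Col-0 array or prt6-1 replicate 2.

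**Figure D4:**
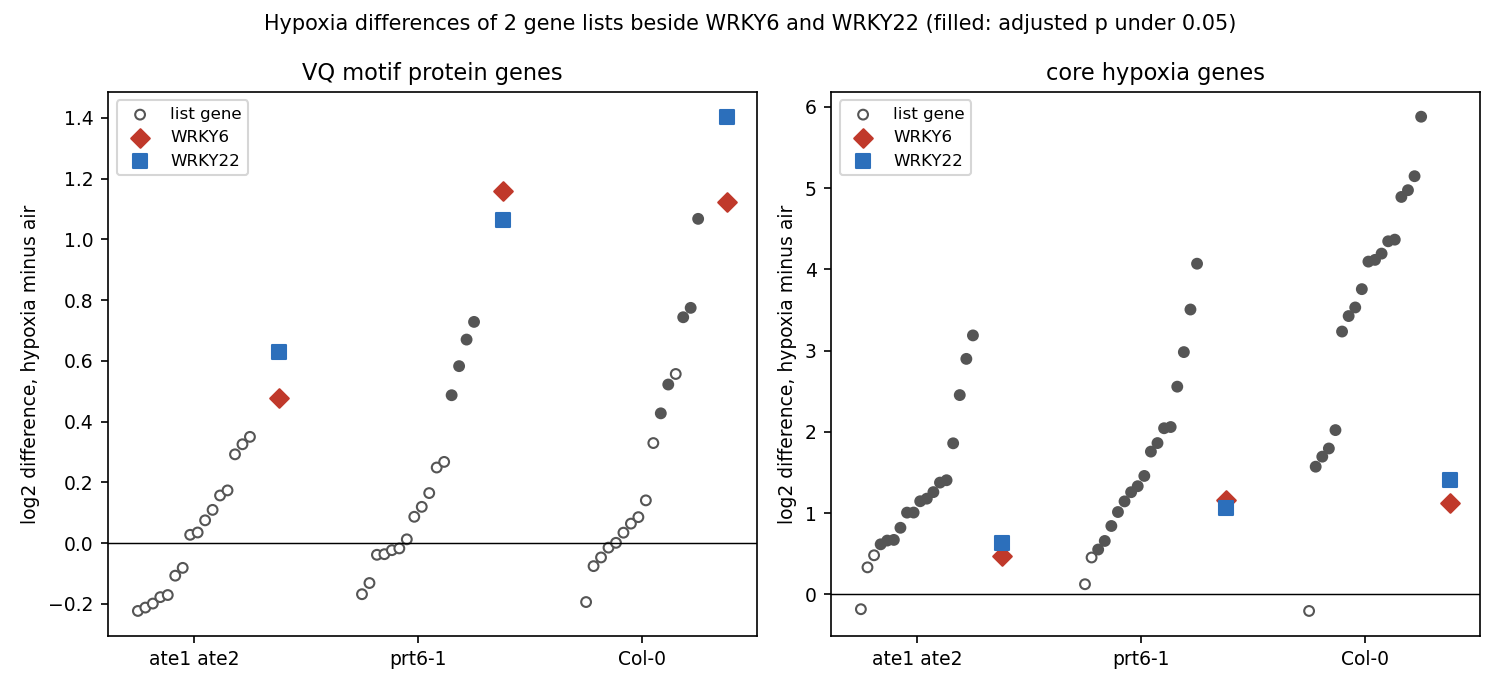
Log2 difference, hypoxia minus air, of each measured VQ-motif gene (left, 16 genes) and core hypoxia gene (right, 18 genes) in ate1 ate2, prt6-1 and Col-0 seedlings, with WRKY6 (diamond) and WRKY22 (square) beside them; filled points had an adjusted p under 0.05 and the vertical scales differ. WRKY6 and WRKY22 lie above the VQ genes in each genotype and below most core hypoxia genes in Col-0.

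The core hypoxia genes give the scale of the response and the state of the mutants in air. Of 35 listed genes, 18 were measured. Under hypoxia 15 were higher in ate1 ate2, 16 in prt6-1 and 17 in Col-0, with median differences of 1.08, 1.39 and 3.93, where 2.92%, 4.08% and 2.1% of all probe sets were called. In air 16 were already higher in ate1 ate2 than in Col-0 (median 3.12) and 15 in prt6-1 (median 2.82), where 3.71% and 4.15% of all probe sets were called, while WRKY22 was called in neither mutant in air and WRKY6 only in ate1 ate2, by 0.43. Under hypoxia the median core difference from Col-0 was 0.12 in ate1 ate2 and 0.30 in prt6-1, beside -0.90 for WRKY22 in ate1 ate2 and 0.49 for WRKY47 in prt6-1.

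Stress, defence and cell type markers were checked beside the WRKY rises. STZ, a zinc-finger factor of rapid stress responses and the 1 measured of 19 genes on that list, rose under hypoxia by 1.05 in ate1 ate2, 0.88 in prt6-1 and 0.82 in Col-0. These calls were lost without hypoxic replicate 2 in ate1 ate2, without air replicate 1 or either hypoxic array in prt6-1, and without air replicate 2 or either hypoxic array in Col-0. STZ was lower in prt6-1 than in Col-0 seeds by 1.08 (adjusted p = 0.00206). The measured genes of the salicylic acid and defence list, PDF1.2 and SAG101 (2 of 23), were not called under hypoxia or between genotypes. The root expansins EXPA7 and EXPA18, the 2 measured of 4 root markers, fell under hypoxia in ate1 ate2 (by 1.06 and 1.21) and in prt6-1 (by 0.75 and 1.23). In Col-0 they differed by -0.24 and -0.61 and were not called, and in air EXPA7 was higher in ate1 ate2 than in Col-0 by 0.97. Whether the share of root tissue has a part in the WRKY differences was not tested. COR47, the 1 measured of 12 genes for abscisic acid and seed maturation, was lower in prt6-1 than in Col-0 seeds by 0.81 (adjusted p = 0.00937), and TRY, the 1 measured of 12 trichome and root hair genes, was called only between seeds and air seedlings. No gene of the lists for MAP kinases and for phosphate responses had a single-gene probe set in the annotation used. That annotation named no gene for 8730 probe sets, so a gene counted here as not measured may still be on the array.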

How the data were processed

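Biotin-labelled cRNA from whole seeds or seedlings was hybridised to ATH1 arrays. Per the submitters' processing notes, the authors summarised probes with RMA (affy is named too, no version is given), and the deposited values are on the log2 scale. RMA makes the distributions of arrays alike, so a change shared by most transcripts is removed. Signal over background is unknown, since no scanner files were used. Of 22810 probe sets, 64 controls were left out. Gene names came from the platform annotation through the TAIR10.1 gene table: 13513 probe sets had 1 gene, 503 several and 8730 none. All genes of the WRKY rule are named, the 3 most alike probe sets of those whose seedling group means span 0.5 units or more, and up to 4 called genes of each list with the largest differences; AT4G20000 was named after its values were seen. The VQ, core hypoxia, stress, defence, root, seed and green-tissue lists were matched by locus, a gene with several probe sets being read from the brightest one. Members and lists were chosen with earlier results of these data known.

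The models were limma fits (version 3.58.1, in R 4.3.3, with lmFit and eBayes, two-sided, Benjamini-Hochberg adjustment over 22746 probe sets) on the 6 seed arrays, the 12 seedling arrays in 6 groups, or all 18 arrays for seeds against seedlings. The fit was tested on simulated data. No 2 arrays were identical. Replicate numbers did not pair the seed arrays (correlations of deviations -0.08 to -0.02). In seedlings these correlations ran from -0.23 to 0.26 and were mostly positive, so pairing there is not settled. Alternatives were quantile normalization, leaving out the dimmest 33.3% of probe sets, an intensity trend with a robust prior, other sets of arrays in the fit, a replicate block and leaving out each array in turn.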

Additional observations from a re-analysis of the deposited data

Results flagged for a closer look

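WRKY6 in ate1 ate2 relative to Col-0 ran in opposite directions in the 2 conditions. In air both ate1 ate2 arrays lay above both Col-0 arrays (difference 0.43), and under hypoxia both lay below (difference -0.21). The test of the difference between the conditions is the interaction, -0.64, which did not pass in limma (adjusted p = 0.111) and ranged from -0.76 to -0.53 over its alternatives. No seed or seedling group had the 4 arrays needed to look for a single array far from its group.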

How the results depend on the processing

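Over the 17 comparisons, the number of WRKY genes called stayed within 1.5 times its value under the alternatives run, except as follows. With quantile normalization the count became 1 in place of 2 for hypoxia in ate1 ate2, 2 in place of 1 for prt6-1 against Col-0 under hypoxia (WRKY6 was added at 0.38, adjusted p = 0.0414), and 2 in place of 0 for ate1 ate2 against prt6-1 under hypoxia. With only the compared groups in the fit it became 0 for hypoxia in ate1 ate2, 0 for ate1 ate2 against Col-0 in air and 1 for ate1 ate2 against prt6-1 under hypoxia. Without the dimmest 33.3% of probe sets it became 1 for that last comparison and 2 for the prt6-1 effect in seeds minus that in air seedlings. With an intensity trend and robust prior it became 2 and 1 for these 2 comparisons. With 1 array left out in turn the counts ranged from 0 to 1 in prt6-1 seeds, 0 to 2 for hypoxia in ate1 ate2, 0 to 0 for prt6-1 in air, 0 to 1 for ate1 ate2 in air, 0 to 1 for prt6-1 under hypoxia, 0 to 2 for the response of ate1 ate2 minus that of Col-0, and 0 to 1 for the prt6-1 effect in seeds minus that in seedlings. VQ counts under hypoxia became 3 in Col-0 with only the compared groups.

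In seeds the replicate numbers did not pair the arrays: 0 of 6 seed arrays correlated best with their own number. With the replicate block the count became 2 for ate1 ate2 against prt6-1 under hypoxia and 2 for the prt6-1 effect in seeds minus that in air seedlings, and no other WRKY count moved by over 1.5 times.

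In Col-0 seeds against air seedlings the uncalled WRKY6 difference ranged from -0.027 without seed replicate 2 to 0.2932 without seed replicate 1, and that of WRKY22 from -0.0262 without seed replicate 2 to 0.4376 without seed replicate 1; WRKY22 was also below 0 without seed replicate 3 (-0.0242) or air replicate 1 (-0.0221). A further 69 differences without a call or an unadjusted p under 0.05 changed sign in 64 of 714 alternative values, all between -0.25 and 0.16. The cause of these changes was not tested. WRKY42 and WRKY53 have no value without the dimmest 33.3%. For the seed comparison a fit of only the compared groups is the fit reported, and background correction and slide could not be varied without scanner files.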
